A study of Mus musculus with 2 samples.

Results

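The barcodes described here are those of mouse medulloblastoma cells in which a large part of the RNA came from mitochondria. A barcode was a member when it had at least 500 detected genes and more than 10% of its UMIs (unique molecular identifiers, each standing for 1 captured RNA molecule) came from the 13 mitochondrial mRNAs, whose symbols start with mt-. The rule took 1587 of 10048 barcodes with at least 500 genes in the library made after standard proton irradiation. It took 1551 of 11917 in the library made after FLASH proton irradiation, in which the dose is delivered at an ultra-high rate. Members were therefore chosen by their mitochondrial share and gene number, and together these were 3138 members of 21965 barcodes with enough genes and of 27136 barcodes listed in the deposited matrices.

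Both libraries came from tumours of Math1-Cre;SmoM2fl/fl mice. In these mice Math1-Cre, active in the cerebellar granule neuron lineage, switches on SmoM2, an activated form of Smoothened that turns on Sonic hedgehog (SHH) signalling, and the tumours model SHH medulloblastoma. Both groups were irradiated with protons and 1 library was made of each, so no unirradiated group was compared. The sample labels give 5 Gy and the series design 10 Gy. Neither the interval between irradiation and harvest nor how many mice gave each library is stated in the sources used here. With 1 library per treatment there was no test between treatments, and barcodes of a library are not replicates. Each ratio below was taken separately in both libraries, and intervals are at 95% confidence and cover counting error only. Where values are paired, the standard library comes first and the FLASH library second.

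Mitochondrial mRNAs are transcribed from the mitochondrial genome, stay inside the organelle and encode subunits of the respiratory chain and ATP synthase. Nuclear genes encode the other subunits, the ribosomal proteins and nearly everything else, and their mature mRNAs lie in the cytoplasm, while some long noncoding RNAs such as Malat1, Neat1, Kcnq1ot1 and Xist stay in the nucleus. A barcode can therefore have a high mitochondrial share because it has more mitochondrial RNA, because it has less nuclear-encoded RNA, or both.

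In these libraries the members differed from the other barcodes mostly in nuclear-encoded UMIs. The median number of nuclear-encoded UMIs was 1300 in the members of the standard library against 5489 in barcodes with at most 10%. In the FLASH library it was 1256 against 5122.5. The median number of mitochondrial UMIs was 249 against 203 in the standard library and 239 against 195 in the FLASH library. Members thus lay a little above the other barcodes in mitochondrial UMIs and far below them in nuclear-encoded UMIs and in detected genes, which had medians of 820 and 812 against 2304 and 2207. These counts are parts of the ratio that chose the members and are given as a description.

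The share of members among barcodes with at least 500 genes was 15.8% (exact Clopper-Pearson interval 15.1 to 16.5) in the standard library, and 13% (12.4 to 13.6) after FLASH irradiation. Their median mitochondrial share was 14.4% and 14.6%, with a maximum of 41.9% and 46.5%, and the median of the other barcodes was 3.6% and 3.66%. The cutoff fell inside a continuous distribution. The 538 and 525 barcodes between 8% and 10% had median nuclear-encoded UMIs of 1887.5 and 1728, and the 424 and 382 members between 10% and 12% had 1699 and 1517. Of all barcode sequences, 46 were listed in both libraries, and 11 of these were members in at least 1 library and 0 in both.

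**Figure D1:**
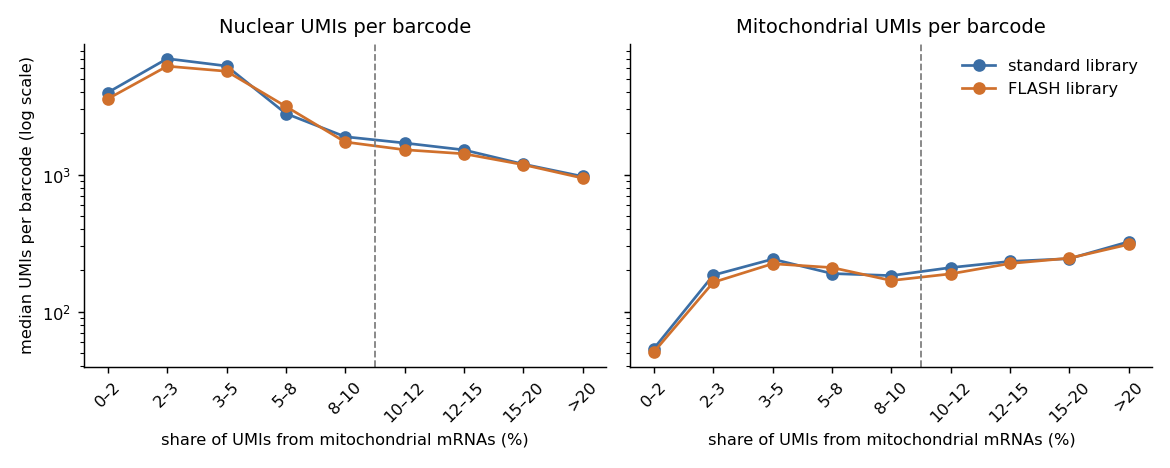
Median UMIs per barcode (log axis) from nuclear genes (left) and mitochondrial mRNAs (right) by bins of the mitochondrial share of UMIs in percent, with 1 line for each library and a dashed line at 10%. Above 10% the nuclear-encoded UMIs fall from medians of 1699 and 1517 to 969.5 and 943, while the mitochondrial UMIs rise from 210 and 189 to 324 and 310.

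The make-up of the mitochondrial RNA was alike in members and other barcodes. mt-Atp6, a subunit of ATP synthase, gave 25.8% and 26.7% of the members' mitochondrial UMIs against 23.6% and 24.2% in the other barcodes. mt-Co2, a subunit of cytochrome c oxidase, gave 16.3% and 16.6% against 16.2% and 16.4%. mt-Co1 gave 11.7% and 11.4% against 12.6% and 12.9%, and mt-Cytb of complex III gave 10.8% and 10.4% against 11.2% and 10.5%. The only mRNA of the light strand, mt-Nd6, gave 0.125% and 0.143% against 0.133% and 0.145%. The largest of these shifts was therefore a few percentage points, in mt-Atp6, whose reading frame overlaps mt-Atp8 by 43 bases, so that their reads may be split between them.

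All values from here on are of nuclear genes, after removal of the mitochondrial counts. UMIs of the members and of the other barcodes were summed in each library and scaled to counts per 1000000 of that sum (CPM). The members' sums held 2363532 and 2193224 nuclear-encoded UMIs and the other barcodes' sums 48382826 and 56182982. Cell identity was taken from 20 clusters made of the other barcodes only, without mitochondrial genes. Each member was assigned to the cluster of most of its 15 nearest neighbours. Clusters were named with the suffix -like from marker genes, since no label names a cell type. Assignment used the same nuclear genes that are compared below, so likeness of members and other barcodes within a cluster is in part built in.

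Most members were granule neuron lineage-like, the lineage of the tumour. This class held 1404 members (88.5%) in the standard library, and 1323 (85.3%) after FLASH irradiation, against 77.0% and 78.4% of the other barcodes. Of the barcodes of this class, 17.7% (16.9 to 18.6) and 14.0% (13.3 to 14.7) were members. In microglia- and macrophage-like barcodes the share was 5.21% (3.01 to 8.33), 16 of 307, and 8.36% (5.53 to 12), 26 of 311. In oligodendrocyte lineage-like barcodes it was 19.5% (11.6 to 29.7), 16 of 82, and 19.2% (11.2 to 29.7), 15 of 78. The share in microglia- and macrophage-like barcodes was thus below that of lineage barcodes in both libraries, with intervals that did not overlap, while the oligodendrocyte interval was wide and held the lineage value.

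Blood-derived classes had almost no members. Erythroid-like barcodes, red cell precursors rich in haemoglobin RNA, had 0 members of 28 and of 36, which allows shares of up to 12.3% and 9.74% by the exact interval. Monocyte- and neutrophil-like barcodes had 0 of 79 and 1 of 122, and endothelial- and mural-like barcodes had 2 of 34 and 4 of 59. A further 149 and 182 members (9.39% and 11.7%) fell in clusters that stayed unnamed. Of these, 105 and 140 were in a shallow cluster whose leading genes were AY036118, Lars2, Tubb3 and Mbp. Another 30 and 29 were in a shallow cluster led by Hist1h4d and Ube2c.

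A single cluster took a large part of the members. Its leading genes were the long RNAs Gm26917, Miat and Kcnq1ot1 with the long neuronal genes Arpp21, Gria2, Cacna1e, Reln and Dst, and it is called the nuclear-RNA-rich cluster here. It held 883 members (55.6%, interval 53.2 to 58.1) in the standard library, and 677 (43.6%, 41.2 to 46.2) after FLASH irradiation. Only 487 (5.76%) and 313 (3.02%) of the other barcodes were in it, and when these were thinned to the members' depths and assigned again the shares were 5.32% and 2.76%. Of all barcodes in the cluster, 64.5% (61.9 to 67.0) and 68.4% (65.4 to 71.3) were members.

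Members elsewhere in the lineage were spread unevenly over its states. The cluster led by Mylpf, Tnnc2 and Myl1 held the most of them, 171 and 228, which is 10.8% and 14.7% of all members. They made up 14.5% (12.5 to 16.6) and 14.0% (12.4 to 15.8) of its barcodes. The cluster led by Ung, Hells and Cdc6, genes of entry into S phase, had 52 and 73 members, 15.2% (11.5 to 19.4) and 16.2% (12.9 to 19.9) of its barcodes. The cluster led by Cre, Hes1 and Atoh1 had 110 and 112, which is 13.3% (11 to 15.8) and 11.8% (9.83 to 14.0). The mitotic cluster led by Prc1 and Ube2c had 7 and 9, which is 2.27% (0.916 to 4.61) and 2.28% (1.05 to 4.28). The cluster of later neurons led by Grin2b and Neurod1 had 16 and 29, which is 2.21% (1.27 to 3.57) and 3.42% (2.30 to 4.87). These mitotic and neuronal clusters thus had smaller shares of members than the clusters led by Ung and by Cre and Hes1 in both libraries. The mitotic cluster was deep, with a median of 10197.5 UMIs in its barcodes with at most 10%, and the part of depth in this order was not tested.

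**Figure D2:**
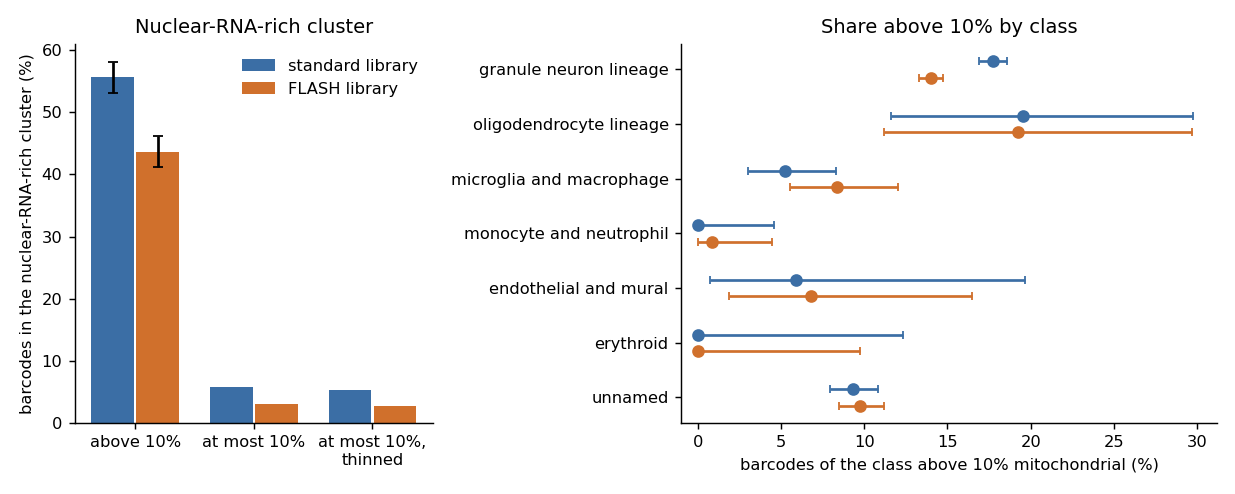
Left, bars give the percentage of barcodes in the nuclear-RNA-rich cluster among barcodes above 10%, barcodes at most 10%, and the latter thinned to the members' depths, by library, with exact 95% intervals on the first pair; right, points give the percentage of each cell class above 10% with exact 95% intervals. The cluster holds 55.6% and 43.6% of the members against 5.76% and 3.02% of the other barcodes, and the classes lie between 0% and 19.5%.

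Across the transcriptome, 6995 nuclear genes averaged at least 20 CPM over the 4 sums. Of these, 1919 (27.4%) were at least 1.5 times higher in members in both libraries, and 1155 (16.5%) were at least 1.5 times lower. These shares are the background against which counts of gene lists are read. The median log2 ratio of members over other barcodes was 0.19 and 0.20. When the ratios were set relative to that median, 1304 genes (18.6%) were higher and 1656 (23.7%) lower. The part of the calls that went up therefore fell from 62.4% to 44.1%, and directions of small changes depend on this scaling. Gene lists below are described by counts and medians on the unscaled ratios, and no list was tested.

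Long RNAs listed as nuclear were mostly higher in members, and whether each of them stays in the nucleus was not tested. Of 14 RNAs of this list in the files, 11 were measured, of which 8 were higher in both libraries and 0 lower. Their median log2 ratio was 1.32 and 1.31. Together they made up 184520 and 162921 CPM in members against 80649 and 74423.5 CPM in the other barcodes. A single gene, Gm42418, gave most of these sums, as its values below show, and the source of its reads was not tested. It also gave most of this list's sums inside the nuclear-RNA-rich cluster and in the shallow barcodes described further below. Snhg20, Neat1 and Pantr1 did not reach the fold in both libraries. The members that did are described next.

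Malat1, a nuclear speckle RNA on chromosome 19 (5795690 to 5802672), was at 44604 and 40366 CPM in members against 17871 and 16237 CPM in the other barcodes, a log2 ratio of 1.32 (1.31 to 1.33) and 1.31 (1.30 to 1.32). Miat, another nuclear RNA, on chromosome 5 (112213228 to 112229395), was at 1062 and 841 CPM against 286 and 235 CPM, with log2 ratios of 1.89 (1.83 to 1.95) and 1.84 (1.77 to 1.91). Both were thus more than 2 times as high in members, and the libraries differed from each other by far less than members did from other barcodes. Kcnq1ot1, an imprinted RNA that overlaps the gene Kcnq1 on chromosome 7 (143203458 to 143296549), was at 1570 and 1379 CPM against 442 and 424 CPM.

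Xist, the RNA of the inactive X chromosome, was at 4784 and 5027 CPM in members against 1415 and 1544 CPM. Gm26917, a lincRNA on chromosome 17 (39843013 to 39846341), was at 2274 and 1564 CPM against 224 and 183 CPM, a log2 ratio of 3.35 (3.30 to 3.39) and 3.09 (3.04 to 3.15). Its neighbour Gm42418 was at 125306 and 108387 CPM against 58052 and 53334 CPM, and AY036118, which overlaps Gm42418 by 923 bases, at 4741 and 5084 CPM against 2196 and 2319 CPM. Reads of overlapping genes cannot be told apart here, since the sources used here do not state whether counting used strand. The same holds for Kcnq1ot1, Miat and Xist, each of which overlaps another gene on the opposite strand. Meg3 was at 57.1 and 137 CPM against 22.7 and 18.5 CPM, but 62.7% of its UMIs in the members of the FLASH library came from 1 barcode.

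The protein-coding genes that differed most upward mostly had a long annotated exonic length. Kmt2d, a histone methyltransferase gene on chromosome 15 (98831669 to 98871204), was at 178 and 138 CPM in members against 37.4 and 33.0 CPM, a log2 ratio of 2.25 (2.09 to 2.40) and 2.06 (1.88 to 2.24). Its annotated exons cover 19931 bases. Celsr3, an adhesion receptor gene, was at 142 and 118 CPM against 36.3 and 31.6 CPM. Alms1, a centrosome and cilium gene, was at 157 and 139 CPM against 39.0 and 39.4 CPM. All of the 12 highest named genes were more than 3 times as high in members in both libraries: besides these they were Mid1, Miat, Nfat5, Pou2f1, Gigyf1, Kcnq1ot1, Xist, Ccdc88c and Fry. Exons of Mid1 and Gigyf1 cover 6.72 and 5.505 kb, and those of the others at least 7.99 kb. Mid1, Gigyf1, Pou2f1, Ccdc88c and Fry overlap gene models on the opposite strand.

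The genes of the translation machinery moved the other way. Of 81 measured ribosomal protein genes, 78 were at least 1.5 times lower in members in both libraries and 0 were higher, with medians of -1.12 and -0.99 on the log2 scale. Their summed level was 81367 and 91194 CPM in members against 176099 and 177339 CPM in the other barcodes. Rpl32 was at 1377 and 1562 CPM against 3431 and 3523 CPM, a log2 ratio of -1.32 (-1.37 to -1.27) and -1.17 (-1.22 to -1.12). The 3 genes that did not reach the fold in both libraries were Rpl13a, Rpl5 and Rps15. Ribosomal protein genes have many near-identical pseudogenes, among which reads may be split.

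The nuclear-encoded partners of the mitochondrial mRNAs were also lower, while the mitochondrial mRNAs themselves were the RNAs that chose the members. Of 76 measured subunit genes of oxidative phosphorylation, 45 were lower and 0 higher, with medians of -0.87 and -0.66. They summed to 15611 and 17607 CPM in members against 27263 and 26683 CPM. Atp5g2, for the c ring of ATP synthase, was at 330 and 381 CPM against 786 and 806 CPM, and Uqcrfs1, the iron-sulphur subunit of complex III, at 72.4 and 80.3 CPM against 176 and 171 CPM. In each case the members of both libraries lay below 50% of the other barcodes' level.

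Genes for expressing mitochondrial DNA and for import into mitochondria split, where 27.4% of all genes were higher and 16.5% lower. Of 26 measured, 6 were higher and 10 lower, and the list's median was -0.27 and -0.30 although its summed level was higher in members, at 7127 and 5864 CPM against 5395 and 5032 CPM. That sum was led by counts assigned to Lars2, the gene of the mitochondrial leucyl-tRNA synthetase, at 4612 and 3180 CPM against 1467 and 1122 CPM. Lars2 was also a leading gene of a shallow unnamed cluster, beside AY036118 and Gm42418, and the source of its reads was not tested. Polg, the mitochondrial DNA polymerase, which overlaps Fanci, was at 60.5 and 55.2 CPM against 24.4 and 24.8 CPM. Nrf1, a transcription factor for mitochondrial genes, was at 103 and 93.5 CPM against 40.8 and 39.8 CPM. Timm8b, an import chaperone, went the other way, at 85.0 and 109 CPM against 225 and 224 CPM.

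Other short metabolic and antioxidant mRNAs followed the ribosomal genes. Of 17 measured NRF2 and glutathione genes, 8 were lower and 0 higher: Prdx1, Prdx2, Sod2, Gpx1, Gsr, Txn1, Fth1 and Ftl1. Gpx1, a glutathione peroxidase, was at 51.2 and 52.9 CPM in members against 120 and 123 CPM. Of 11 glycolysis and hypoxia genes, 4 were lower and 2 higher. Gapdh was at 391 and 467 CPM against 1010 and 1020 CPM, while Vegfa, the vascular growth factor, was at 29.6 and 31.5 CPM against 11.9 and 13.9 CPM.

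**Figure D3:**
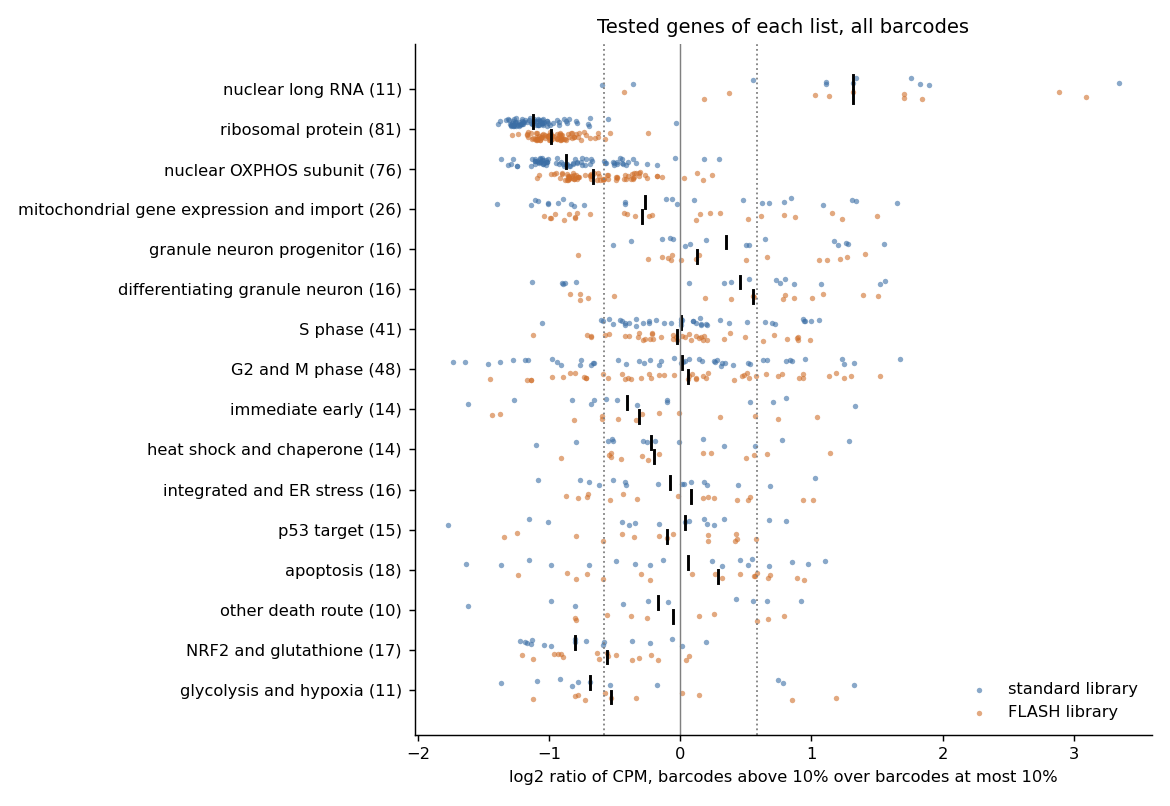
Log2 ratio of CPM in members over barcodes with at most 10% mitochondrial UMIs, over all barcodes, for each tested gene of 16 lists (points) by library, with the list's median as a black bar, its number of tested genes in parentheses and dotted lines at 1.5 times in either direction. Medians of the nuclear long RNAs lie highest of these lists, at 1.32 and 1.31, and those of the ribosomal protein genes lowest, at -1.12 and -0.99.

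The direction of change tracked the annotated exonic length of the gene and also its genomic span. The tested genes were put in 4 bins of equal size by exonic length, from the annotation of 6991 of them. In the shortest bin, up to 3.10 kb, 2.29% were higher and 47.3% lower in members in both libraries. In the next the shares were 11.96% and 13.7%, in the third 32.9% and 4.41%, and in the longest, from 7.99 kb, 62.6% and 0.572%. Called genes among the longest were mostly higher and called genes among the shortest mostly lower. By genomic span, 6.98% of the shortest bin were higher and 40.4% lower, against 55.6% and 2.29% of the longest. Which of these lengths the change followed, or whether it followed that of the mature RNA, was not tested. Among 76 long noncoding RNAs, 38 were higher and 9 lower. These are descriptions across genes, which are not independent.

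Lists stood at different distances from genes of like length. Relative to the median of genes of like exonic length, 75 of 81 ribosomal protein genes lay below it in both libraries and 3 above, and the list's median stood 0.32 and 0.34 below on the log2 scale. The 11 measured nuclear long RNAs stood 0.81 and 0.89 above genes of like length. Oxidative phosphorylation genes stood only 0.12 and 0.07 below, and p53 target genes 0.07 and 0.16 below.

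**Figure D4:**
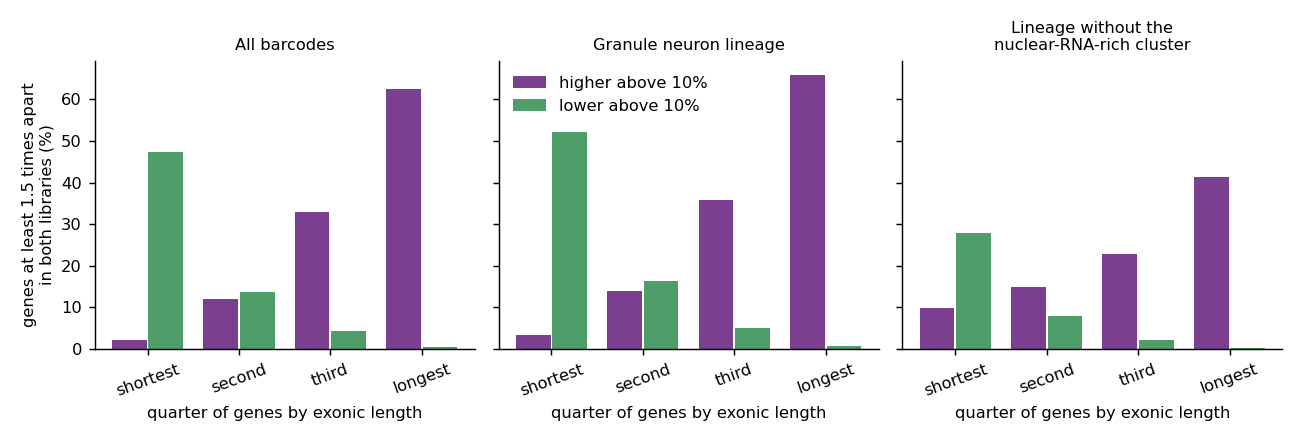
Bars give the percentage of tested nuclear genes that were at least 1.5 times higher or lower in members in both libraries, in 4 bins of exonic length, over all barcodes, over the granule neuron lineage, and over that lineage without the nuclear-RNA-rich cluster. In all barcodes the share of higher genes climbs from 2.29% to 62.6% over the bins and the share of lower genes drops from 47.3% to 0.572%; in the lineage without the cluster they go from 9.97% to 41.4% and from 27.8% to 0.174%.

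Within granule neuron lineage-like barcodes alone, 7002 genes were measured, of which 2086 (29.8%) were higher and 1303 (18.6%) lower in members. Relative to the median of all genes these were 1334 (19.1%) and 1788 (25.5%), and the part of calls that went up was 61.6% before and 42.7% after that scaling. Of 81 ribosomal protein genes 80 were lower, and of 76 oxidative phosphorylation genes 52. Replication-dependent histone genes led the lower side. Hist1h1b, a linker histone made in S phase, was at 340 and 428 CPM in lineage members against 1219 and 1445 CPM in other lineage barcodes, and Hist1h2ae at 92.1 and 115 CPM against 305 and 347 CPM. When the other lineage barcodes were weighted to the members' depth, as described below, their mean log2 ratios were 0.048 and 0.029, so these genes were then no longer lower. Tmsb10, a small actin-binding protein, was at 749 and 692 CPM against 2005 and 1817 CPM, and Sumo2, a protein modifier, at 358 and 403 CPM against 1048 and 1078 CPM.

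Without the nuclear-RNA-rich cluster, an alternative chosen after seeing the data, the lineage still showed 1539 higher genes (22.3% of 6899) and 659 lower ones (9.55%). Of the 2086 and 1303 genes called in the whole lineage, 1174 and 629 were called the same way there. Ribosomal protein genes were lower in 71 of 81, with medians of -0.91 and -0.85, and nuclear long RNAs higher in 7 of 9. Inside the cluster the members and the other barcodes were much closer: 88 of 7192 genes (1.22%) were higher and 269 (3.74%) lower, and 0 of 81 ribosomal protein genes reached the fold. Over all barcodes, leaving out the cluster gave 1213 higher genes (17.7% of 6871) and 405 lower ones (5.89%). Within it the summed nuclear long RNAs were at 212677 and 200728 CPM in the cluster's members against 148616 and 140941 CPM in its other barcodes.

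Weighting the clusters of the other barcodes to the members' mix reduced the calls to 182 higher (2.54%) and 256 lower (3.58%) over all barcodes and to 195 (2.71%) and 377 (5.25%) in the lineage, where 68 of 81 ribosomal protein genes were still lower and 5 of 10 nuclear long RNAs higher.

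Depth moved with these differences. Other lineage barcodes outside the cluster that also had at most 2000 nuclear-encoded UMIs numbered 284 and 336. Their nuclear long RNAs summed to 141086 and 123240 CPM, close to the 147347 and 136831 CPM of the members outside the cluster. Their ribosomal protein genes summed to 102014 and 102125 CPM, against 98147 and 100668 CPM in those members. These shallow lineage barcodes thus had nearly the same balance of nuclear long RNA and ribosomal protein mRNA. They had fewer mitochondrial UMIs, with medians of 100.5 and 99 against 252 and 245 in those members. Their median mitochondrial share was 6.53% and 6.56%, against 12.9% and 13.7% in those members. In all other lineage barcodes outside the cluster it was lower, at 3.43% and 3.53%. Whether lineage barcodes this shallow had the same balance at such a lower share was not tested.

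Not every set of shallow barcodes had this balance. In the unnamed cluster led by Hist1h4d and Ube2c the barcodes with at most 10% had medians of 1528 and 1539 nuclear-encoded UMIs, and in the unnamed cluster led by AY036118 and Lars2 they had 1339.5 and 1289. Their ribosomal protein genes summed to 207654 and 207141 CPM in the first of these clusters and to 226094 and 232629 CPM in the other. Malat1 was at 2385 and 1754 CPM and at 2603 and 1787 CPM, below the 46780 and 43881 CPM of the lineage members outside the nuclear-RNA-rich cluster. Gm42418 did not follow Malat1 there. It was at 95978 and 89507 CPM and at 107006 and 100705 CPM in these clusters, against 89920 and 81493 CPM in those members. Neither cluster met the cutoffs of another cell type. In them 11 and 10 lineage markers reached a log2 ratio of 1 against the clusters of other types. Both stayed unnamed for their low depth, with no lineage marker among their 10 leading genes, so they are not in the lineage comparisons. The 105 and 140 members assigned to the cluster led by AY036118 and Lars2 also had high ribosomal protein sums, at 184677 and 185646 CPM, and Malat1 at 6678 and 4422 CPM.

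When other lineage barcodes were weighted to the members' distribution of nuclear-encoded UMIs, 288 genes (3.98% of 7245) were higher and 267 (3.69%) lower in members, and 0 of 81 ribosomal protein and 0 of 76 oxidative phosphorylation genes reached the fold. Of the genes called without weighting, 211 and 114 were called the same way and 18 and 1 the opposite way. The weighted barcodes were not like the members in cluster, however: 45.8% and 36.9% of their weight lay in the nuclear-RNA-rich cluster, against 62.9% and 51.2% of the lineage members. Over all barcodes the weighting gave 1833 higher genes (26.4%) and 930 lower ones (13.4%), of which 1493 and 829 were among the 1919 and 1155 called without it, and there 56.4% and 58.2% of the weight lay in shallow unnamed clusters.

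Identity genes of the tumour were present in the members. Of 16 measured granule neuron progenitor and SHH genes, 6 were higher and 0 lower, beside 27.4% of all genes higher. Their medians were 0.34 and 0.13, the latter below that of all genes. The list's median stood 0.18 and -0.002 from genes of like exonic length, with 8 genes above and 6 below in both libraries. The higher genes had a median exonic length of 7.525 kb. Ptch1, the SHH receptor and a target of the pathway, on chromosome 13 (63508328 to 63573598), was at 1059 and 1019 CPM in members against 436 and 439 CPM, a log2 ratio of 1.28 (1.22 to 1.34) and 1.22 (1.15 to 1.28). The transcription factor Gli1, another target, was at 137 and 116 CPM against 56.9 and 55.7 CPM.

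Further SHH genes showed the same direction. Hhip, which binds the ligand, was at 115 and 131 CPM against 50.3 and 54.4 CPM, and the co-receptor Boc at 130 and 133 CPM against 57.9 and 61.4 CPM. All of these SHH genes were also higher in the lineage without the nuclear-RNA-rich cluster. Atoh1, the progenitor transcription factor, went the other way, at 44.4 and 34.7 CPM against 63.6 and 59.9 CPM, with log2 ratios of -0.51 (-0.81 to -0.24) and -0.78 (-1.14 to -0.46), which did not reach the fold in the standard library. In the lineage outside the nuclear-RNA-rich cluster, Atoh1 was at 64.9 and 48.1 CPM in members against 69.9 and 65.3 CPM. Other lineage barcodes there with at most 2000 nuclear-encoded UMIs had 42.3 and 38.3 CPM, below those members. The direction for Atoh1 thus depends on the barcodes it is set against.

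Genes of differentiating granule neurons split, with 7 of 16 higher and 4 lower, beside 27.4% and 16.5% of all genes. Rbfox3, a neuronal splicing factor, was at 418 and 312 CPM in members against 146 and 147 CPM, and Dcc, a guidance receptor, at 288 and 265 CPM against 97.6 and 93.4 CPM. The 4 lower genes were Tubb3, Stmn2, Stmn3 and Gap43, for proteins of the neuronal cytoskeleton and growth cone. Tubb3 was at 245 and 290 CPM against 536 and 522 CPM. The higher genes of this list had a median exonic length of 9.84 kb and the lower ones 1.70 kb.

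After weighting for depth within the lineage, the differentiation genes no longer split: 0 of 19 were higher and 11 lower in members, with medians of -0.74 and -0.86. With the nuclear-RNA-rich cluster also left out, 0 of 17 were higher and 10 lower, with medians of -0.75 and -0.73, at 5901 and 6063 CPM against 9555 and 10020 CPM. Against named lineage barcodes of like depth, members therefore had less RNA of this program. Against all lineage barcodes the members' summed level was 6617 and 6799 CPM against 6499 and 6496 CPM. The shallow unnamed clusters were in neither comparison. Among their barcodes with at most 10%, these genes summed to 3204 and 3344 CPM in the cluster led by Hist1h4d and Ube2c. In the cluster led by AY036118 and Lars2 they summed to 6989 and 6378 CPM.

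For cell cycle genes, too, the counts depended on the barcodes they were set against. Over all barcodes, 27.4% of all genes were higher and 16.5% lower. Against all other barcodes, 6 of 41 S phase genes were higher and 3 lower, with medians of 0.00 and -0.02, and 10 of 48 G2 and M phase genes were higher and 12 lower, with medians of 0.01 and 0.06. The higher ones included Mki67, a proliferation marker on chromosome 7 (135689784 to 135716361), at 1500 and 1446 CPM in members against 471 and 503 CPM, a log2 ratio of 1.67 (1.62 to 1.72) and 1.52 (1.47 to 1.58). Hjurp, which loads centromeric histone, was at 708 and 675 CPM against 283 and 284 CPM, and Cdca2, a mitotic phosphatase subunit, at 82.9 and 92.6 CPM against 35.3 and 37.6 CPM.

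Lower cycle genes had a shorter median exonic length than higher ones. Ube2c, a ubiquitin-conjugating enzyme of mitotic exit that overlaps Tnnc2, was at 105 and 126 CPM against 350 and 345 CPM, a log2 ratio of -1.73 (-1.92 to -1.56) and -1.45 (-1.63 to -1.28). Cyclin B2 (Ccnb2), Cks2, Cks1b, Birc5 and Cdk1 were lower as well. The higher G2 and M genes had a median exonic length of 7.68 kb and the lower ones 2.73 kb. That list's median stood -0.28 and -0.21 from genes of like exonic length, with 29 genes below and 16 above in both libraries. The S phase list's median stood -0.11 and -0.12 from them, with 22 genes below and 13 above. In S phase, Dtl, Atad2 and Wdr76 were higher, Dtl at 148 and 150 CPM against 71.4 and 75.8 CPM, while Tipin was at 39.4 and 42.4 CPM against 82.5 and 93.1 CPM.

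Against lineage barcodes weighted to the same depth, without the shallow unnamed clusters, cycle genes were higher in members. There 11 of 41 S phase genes were higher and 0 lower (medians 0.47 and 0.47), and 21 of 48 G2 and M genes were higher and 0 lower (medians 0.60 and 0.71), where 3.98% of all genes were higher. With the nuclear-RNA-rich cluster left out as well, 13 of 39 and 10 of 46 were higher and 0 of either lower, against 5.08% of all genes. In that last comparison the mean log2 ratio of both libraries was 1.18 for Mki67, 1.07 for Atad2, 1.14 for Wdr76, 1.71 for the SHH gene Hhip, 0.89 for Ptch1 and -0.03 for Ube2c. Outside the cluster and without weighting, by contrast, 2 of 48 G2 and M genes were higher and 17 lower. The list summed to 7324 and 7944 CPM in lineage members outside the nuclear-RNA-rich cluster. Among barcodes with at most 10%, it summed to 16814 and 17007 CPM in the shallow cluster led by Hist1h4d and Ube2c. In the shallow cluster led by AY036118 and Lars2 it summed to 3131 and 3257 CPM. The direction for this list thus depends on the barcodes it is set against.

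The share of barcodes with a UMI of a gene showed the same for Mki67. After thinning each barcode to 800 nuclear-encoded UMIs, which left out 90 and 126 members and 70 and 65 other barcodes that were shallower, 38.5% (36 to 41) and 38.3% (35.8 to 40.9) of members had an Mki67 UMI. In the other barcodes the shares were 18.1% (17.3 to 18.9) and 18.6% (17.9 to 19.4), and in microglia- and macrophage-like barcodes with at most 10%, a class outside the tumour lineage, 5.50% and 3.86%. Among the 16 and 25 microglia- and macrophage-like members that were deep enough, the shares were 25% (7.27 to 52.4) and 16% (4.54 to 36.1), above those of that class with at most 10% and with wide intervals that overlap those of all members. Without thinning they were 45.9% and 46.5% in members, 39.3% and 39.6% in the other barcodes and 19.6% and 16.8% in the microglia- and macrophage-like ones. Median depths before thinning were 1300 and 1256, 5489 and 5122.5, and 6514 and 7059 nuclear-encoded UMIs. For Neurod1, a neuronal transcription factor, the thinned shares went the other way, at 19.0% and 20.1% of members against 26.7% and 25.6%, with 4.81% and 4.21% in the microglia- and macrophage-like barcodes.

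Stress genes stood on both sides, as did all genes, of which 27.4% were higher and 16.5% lower. Of 14 immediate early genes, 2 were higher and 5 lower in members of both libraries. Fosb was at 260 and 181 CPM against 103 and 88.0 CPM, while Junb, which overlaps Prdx2, was at 55.4 and 45.1 CPM against 134 and 123 CPM. Within the lineage 3 of 13 were higher and 1 lower, beside 29.8% and 18.6% of all genes. Fos and Junb no longer reached the fold there, at log2 ratios of -0.45 and -0.34 for Fos and -0.35 and -0.45 for Junb. Myeloid markers moved with the calls over all barcodes, as given below, and their part in them was not tested.

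Of 14 heat shock and chaperone genes, 1 was higher and 1 lower, where 27.4% of all genes were higher and 16.5% lower. Hspa5, the main chaperone of the endoplasmic reticulum, was at 1287 and 1054 CPM in members against 528 and 478 CPM, a log2 ratio of 1.29 (1.23 to 1.34) and 1.14 (1.08 to 1.20). Hspe1, the mitochondrial co-chaperone, was at 217 and 249 CPM against 468 and 470 CPM. Of 16 genes of the integrated and endoplasmic reticulum stress responses, 2 were higher, Slc7a5 and Vldlr, and 4 lower, Ddit4, Phgdh, Eif4ebp1 and Nupr1. Vldlr, a lipoprotein receptor, was at 57.1 and 76.1 CPM against 28.1 and 37.8 CPM. For Hspa5 the mean log2 ratio was 0.59 in the lineage outside the nuclear-RNA-rich cluster after weighting for depth.

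No p53 target gene reached the fold upward in both libraries. Of 15 measured, 0 were higher and 3 lower, with medians of 0.04 and -0.10, beside 27.4% of all genes higher. Cdkn1a, the p21 inhibitor of the cell cycle and a main target of p53, was at 18.2 and 29.2 CPM in members against 62.9 and 74.8 CPM, from 43 and 64 UMIs in members, a log2 ratio of -1.77 (-2.26 to -1.36) and -1.35 (-1.738 to -1.003). Bax, a pore-forming death protein, was at 107 and 147 CPM against 238 and 255 CPM. Mdm2, which degrades p53, was at 61.3 and 69.3 CPM against 54.2 and 52.1 CPM and did not reach the fold. The 3 lower genes, with Bloc1s2, had a median exonic length of 1.79 kb. In the lineage without the nuclear-RNA-rich cluster 0 of 13 reached the fold in either direction, and after weighting for depth there the mean log2 ratio of Cdkn1a was 0.27, the opposite sign.

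Genes of apoptosis were higher in 3 of 18 and lower in 4, beside 27.4% and 16.5% of all genes. Birc6, a large inhibitor of apoptosis, was at 301 and 274 CPM in members against 140 and 143 CPM, and Apaf1, the scaffold of the apoptosome, at 27.5 and 26.0 CPM against 14.1 and 14.1 CPM. Casp2 was the third higher gene. The lower genes were Bax, Bok, Bad and Cycs. Bad, which overlaps Gpr137, was at 19.0 and 24.6 CPM against 59.9 and 58.7 CPM, and Cycs, the gene of cytochrome c, at 85.5 and 115 CPM against 221 and 210 CPM.

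Survival and death genes thus stood on both sides, as did all genes, of which 27.4% were higher and 16.5% lower. Higher genes of the apoptosis list were again longer, with medians of 9.03 kb against 2.20 kb. Of 10 genes of other death routes, Ripk1 and Acsl4 were higher and Ninj1 and Bnip3l lower. After weighting for depth in the lineage outside the nuclear-RNA-rich cluster, 1 of 17 apoptosis genes was higher and 1 lower. There 5.08% of all genes were higher and 3.44% lower.

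Markers of myeloid and red cells were lower in members over all barcodes but not within the lineage. Of 13 measured microglia and macrophage genes, 11 were lower over all barcodes, and the 18 genes of the list summed to 1153 and 2235 CPM in members against 4818 and 4737 CPM. Lyz2, for lysozyme, was at 48.2 and 95.8 CPM against 357 and 356 CPM. The 4 haemoglobin genes Hba-a1, Hba-a2, Hbb-bs and Hbb-bt were all lower, and summed to 278 and 250 CPM against 1814 and 1820 CPM, but with the clusters weighted to the members' mix their median log2 ratio was 0.71, the opposite sign. These counts move with the low number of members among myeloid and erythroid barcodes.

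No measured gene of the astrocyte and oligodendrocyte lists reached the fold downward over all barcodes, where 27.4% of all genes were higher. Of 5 measured astrocyte genes, 3 were higher and 0 lower, and the 9 genes of that list summed to 656 and 721 CPM in members against 318 and 351 CPM. Slc1a2, a glutamate transporter, was at 410 and 399 CPM against 167 and 179 CPM. Within the lineage it was likewise at 436 and 414 CPM against 182 and 189 CPM. Of 10 oligodendrocyte lineage genes, Mbp and Mobp were higher and 0 lower. Mbp, of myelin, was at 399 and 647 CPM against 180 and 199 CPM. When the other barcodes were weighted to the members' depth, however, the mean log2 ratio was -0.0048 for Mbp and -0.0064 for Mobp. Vcan, a matrix proteoglycan and the only measured gene of 8 on the monocyte and neutrophil list, was at 187 and 226 CPM against 72.6 and 80.1 CPM.

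Within lineage-like barcodes the lists of other cell types were at 412 and 444 CPM in members against 130 and 134 CPM for microglia and macrophages, with 0 of 18 markers at 0. For haemoglobin they were at 286 and 240 CPM against 65.8 and 76.5 CPM. The 14 oligodendrocyte lineage genes summed to 707 and 1042 CPM against 331 and 403 CPM. Marker RNA of other cell types was thus a larger fraction of the nuclear-encoded UMIs in lineage members than in the other lineage barcodes. Weighting the latter to the members' depth brought these sums nearer, to 387 and 328 CPM for microglia and macrophages, 170 and 202 CPM for haemoglobin and 642 and 777 CPM for the oligodendrocyte lineage. After that weighting 0 of the 2, 3 and 5 measured genes of these lists reached the fold, and Tyrobp and Cd74 of the microglia and macrophage list had mean log2 ratios of -0.29 and -0.35. In the other lineage barcodes outside the nuclear-RNA-rich cluster with at most 2000 nuclear-encoded UMIs, the microglia and macrophage genes were at 345 and 292 CPM, against 382 and 410 CPM in the members outside the cluster. The haemoglobin genes were at 146 and 163 CPM there, against 176 and 198 CPM.

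The differences did not begin at 10%. Between 3% and 5% mitochondrial UMIs, Malat1 was at 17556 and 15695 CPM, and between 8% and 10%, still outside the members, it was at 33740 and 29558 CPM. Ribosomal protein genes summed to 184382 and 184394 CPM in the lower of these bins and to 113200 and 128937 CPM in the upper. The nuclear-RNA-rich cluster held 2.6% and 1.0% of barcodes between 3% and 5%, and 76.8% and 71.5% above 20%. Mki67 was at 362 and 437 CPM between 3% and 5% and at 2781 and 2822 CPM above 20%. p53 target genes summed to 951 and 1005 CPM and to 769 and 801 CPM in these bins.

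**Figure D5:**
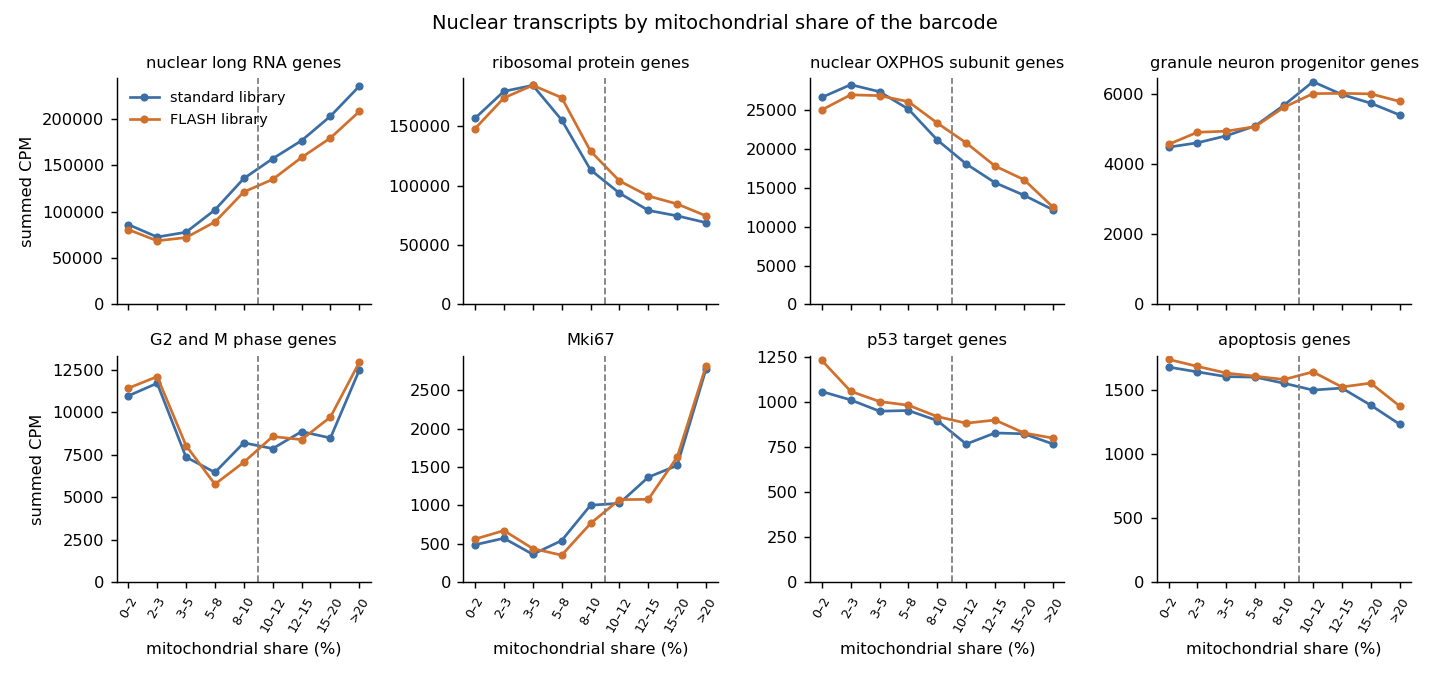
Summed levels of 7 gene lists and the level of Mki67, in CPM of nuclear-encoded UMIs, by bins of the mitochondrial share of UMIs in percent, with 1 line for each library and a dashed line at 10%. Nuclear long RNAs and Mki67 are higher and ribosomal protein genes lower above 20% than between 3% and 5%, where Mki67 goes from 362 and 437 to 2781 and 2822 CPM.

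Members of the FLASH library were compared with those of the standard library to see how the treatments differed within this set. Of 7210 genes, 101 (1.4%) were at least 1.5 times higher after FLASH and 94 (1.3%) lower, where among barcodes with at most 10% only 4 (0.0613%) and 6 (0.0919%) of 6527 were. Within the lineage 88 (1.22%) and 100 (1.39%) were among members, and 2 (0.031%) and 3 (0.0464%) among the other barcodes. The members' sums are far smaller, and single libraries give no measure of spread. The highest of the named genes were Meg3, at 57.1 CPM after standard and 137 CPM after FLASH irradiation, and the macrophage genes C1qb, Apoe, C1qa and Lyz2. In the FLASH library 1 barcode gave 24.4% of the members' C1qb UMIs, 20.7% of those of Apoe, 30.1% of C1qa and 41.0% of Lyz2.

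C1qb, a complement subunit, was at 69.8 CPM in members after standard and 159 CPM after FLASH irradiation, a log2 ratio of 1.18 (0.91 to 1.46), and Apoe at 696 and 1411 CPM, a ratio of 1.02 (0.93 to 1.11). Within lineage members the ratios were 0.42 and 0.13, and 16 against 26 members were microglia- and macrophage-like. The Meg3 ratio of 1.26 became -0.26 without the 5 barcodes with most Meg3 UMIs in each sum. The lowest were the pseudogene Olfr1369-ps1, at 171 and 76.6 CPM, a ratio of -1.15 (-1.42 to -0.89), Nol4l at 99.0 and 57.5 CPM, Kif14, a mitotic kinesin, at 64.3 and 38.3 CPM, Zfp60 and Plcb4. Nol4l also had a ratio of -0.64 in barcodes with at most 10%, where Kif14 had 0.15.

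No list of cycle, p53 or death genes had more than 1 member past the fold between the treatments. The median ratio was 0.13 for 48 G2 and M phase genes, 0.03 for 41 S phase genes, -0.04 for 14 p53 target genes and 0.01 for 18 apoptosis genes, beside 0.02 for all genes. Of 14 integrated and endoplasmic reticulum stress genes, 3 were higher after FLASH, with a median of 0.30 in members and 0.22 in the other barcodes. Ribosomal protein genes had a median of 0.18 in members and 0.04 in the other barcodes, and 0 of 81 reached the fold. In members the nuclear-RNA-rich cluster held 55.6% after standard and 43.6% after FLASH irradiation, and its part in these differences was not tested beyond the alternative without it, which called 212 genes higher and 208 lower.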

How the data were processed

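Droplet libraries (10x Genomics V3) were analysed from 1 tumour sample after standard and 1 after FLASH proton irradiation. The deposited values are raw UMI counts. Per the file headers, the authors counted with Cell Ranger 6.1.2. Their genome build was mm10, per the submitters' processing notes. The sources used here do not state the annotation release or the strand setting. Each listed barcode had at least 500 UMIs, and totals were 55532202 and 63178900 UMIs. Both files list 31055 features. Gene lengths, coordinates and overlaps were taken by gene ID from GENCODE M21.

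Clusters were made from barcodes with at most 10% mitochondrial UMIs with scanpy 1.11.5: 2000 variable genes that were not mitochondrial, ribosomal or sex-linked, 30 principal components, 15 neighbours and Leiden clustering (igraph 0.11.9) at resolution 1. A cluster of another type than the granule neuron lineage needed a mean marker log2 ratio of 1.5, and every name needed 3 markers that reached a log2 ratio of 1 after adding 20 CPM. Another type also needed more markers among its 10 leading genes than any other type had. A cluster with none of its markers there and a median depth under 33.3% of its library's stayed unnamed. These naming cutoffs were set after seeing the data. Scrublet's automatic cutoff marked 0 barcodes in either library and so did not work. Doublets were therefore kept, and an alternative removed the highest scores at 0.8% per 1000 barcodes (808 and 1136).

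UMIs were summed per library and set, mitochondrial counts removed, and log2 ratios taken after adding 0.5 count, with exact conditional binomial intervals. A gene was called at 1.5 times the same way in both libraries. The self-test ran on simulated data. Named genes were the 12 highest and 12 lowest of at least 50 CPM by the smaller of both ratios, 5 each for FLASH against standard, the 4 largest of each list, and all nuclear long RNA and haemoglobin genes. Mitochondrial, ribosomal protein and haemoglobin genes and unnamed gene models were left out of the ranking, and a few further genes were named after their values were seen (Gli1, Atoh1, Mdm2, Casp2, Tubb3, Stmn2, Stmn3, Gap43, Ccnb2 and other called members of lists). Some genes the rule names are not reported here. The members and lists were chosen with earlier results of these data known. Alternatives covered the cutoffs on mitochondrial share, genes and level, doublets, depth, cluster mix and single barcodes. Those without the nuclear-RNA-rich cluster and those relative to the median of all genes were added after seeing the data.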

Additional observations from a re-analysis of the deposited data

Results flagged for a closer look

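Barcodes under 500 detected genes were not used in any comparison, and many of them also had more than 10% mitochondrial UMIs. In the standard library 998 of 2819 did, 35.4% (exact Clopper-Pearson interval 33.6 to 37.2). In the FLASH library 952 of 2352 did, 40.5% (38.5 to 42.5). Both shares were more than 2 times those of barcodes with at least 500 genes, 15.8% and 13%, and the order of the libraries was the opposite. They drew attention because they lie in barcodes outside the main measurement. The median nuclear-encoded UMIs of all barcodes under 500 genes were 605 and 604.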

How the results depend on the processing

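The share of members depends on the cutoffs by their construction. Values of 15.8% and 13% became 35.7% and 32.6% over 5%, 7.23% and 6.14% over 15%, 3.26% and 2.32% over 20%, 20.2% and 17.7% with at least 200 genes, and 7.08% and 4.96% with at least 1000 genes. Removing doublets gave 16% and 13.4%.

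Over all barcodes, 1919 higher and 1155 lower genes became 182 and 256 when other barcodes were weighted to the members' cluster mix, and 1213 and 405 without the nuclear-RNA-rich cluster. A minimum of 5 CPM gave 2955 higher genes and 50 CPM gave 971, by testing more or fewer genes. In the lineage, 2086 and 1303 became 288 and 267 weighted to depth, 195 and 377 weighted to cluster mix, and 362 and 245 weighted to depth without the nuclear-RNA-rich cluster. Lower genes were 659 without that cluster, and higher genes were 3210 at 5 CPM, 1072 at 50 CPM and 1334 relative to the median of all genes. Between treatments, 101 higher and 94 lower genes in members became 1059 and 746 over 20%, 304 and 277 with at least 1000 genes, 492 and 393 at 5 CPM, 25 and 10 at 50 CPM, and 212 and 208 without the cluster. The cause was not tested except where the construction gives it.

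Some single values changed sign, given as mean log2 ratios of both libraries. Weighted to cluster mix over all barcodes, the haemoglobin and erythroid lists had medians of 0.71 and 0.71, Hba-a1 0.75, Hba-a2 0.45, Hbb-bs 0.67 and Hbb-bt 0.84. Weighted to depth over all barcodes, AY036118 was at -0.049, Mbp at -0.0048 and Mobp at -0.0064. Weighted to depth in the lineage, Astn1 was at -0.18, Cd74 -0.35, Eif4ebp1 0.0050, Gpx1 0.084, Hist1h1b 0.048, Hist1h2ae 0.029, Hist1h2ap 0.0084, Meg3 -0.32, Miat -0.12, Phgdh 0.24, Snap25 -0.0068 and Tyrobp -0.29. With the nuclear-RNA-rich cluster also left out, the NRF2 list was at 0.065, Astn1 -0.27, Cdkn1a 0.27, Dnajb4 -0.013, Eif4ebp1 0.33, Gpx1 0.0057, Hist1h1b 0.022, Hist1h2ae 0.15, Hist1h2ap 0.26, Hspe1 0.011, Ldha 0.26, Lyz2 -0.23, Mal -0.20, Meg3 -1.48, Miat -0.45, Neat1 -0.20, Phgdh 0.59, Prdx1 0.065 and Tyrobp -1.08. Over 20%, Acsl4 was at -0.38 over all barcodes and -0.23 in the lineage, and Meg3 at -0.99 between treatments. Without the 5 barcodes with most UMIs, Cd74 was at -0.064 and Mal at -0.34 in the lineage, and Meg3 at -0.26 between treatments. With at least 1000 genes, Mal was at -0.18 in the lineage.

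Of the other values of single genes, 1464 stayed within their interval and 822 moved in size. Leaving out a replicate was not run, since each treatment had 1 library. No paired analysis was possible because each group had 1 library. Setting the other barcodes at most 5% leaves the members as they are, so it gave no value between treatments. The members' sums held under 5% of the UMIs of the other barcodes, which limits the precision of their values.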
